A study of Homo sapiens with 9 samples.

Results

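The histone variant H2A.Z is encoded by H2AZ1 and H2AZ2, and the proteins that put it into chromatin or take it out are encoded by SRCAP, EP400, VPS72, ANP32E, KAT5, RUVBL1, RUVBL2 and ACTL6A. Open chromatin at these 10 genes, of 20136 annotated protein-coding genes, was examined by ATAC-seq in the liver cancer line HepG2, an assay in which a transposase cuts and tags open DNA. Every peak that touched a gene body or the 10 kb on either side was taken, and overlapping peaks of different lists were merged. This gave 27 regions of 111260 in the whole series. The 3 groups were cells given a non-targeting siRNA (NTG), the INO80 siRNA siINO80#1 or the INO80 siRNA siINO80#2, each at 50 nM for 72 hours. Each group had 3 replicates, for 9 samples, but the deposited data are 1 peak list per group, so that no value per replicate could be given and replicate error is unknown for every difference below. Of 69730 NTG peaks, 26 lay in the windows of the 10 genes. The numbers were 24 of 69333 for siINO80#1 and 22 of 53113 for siINO80#2.

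H2A.Z replaces the common histone H2A in some nucleosomes and is best known for flanking the start sites of active genes. The SRCAP complex and the TIP60-p400 complex exchange H2A for H2A.Z, and ANP32E is a chaperone that strips it from nucleosomes. INO80, the ATPase of a further remodeling complex, shares RUVBL1, RUVBL2 and ACTL6A with these complexes and has itself been linked to H2A.Z exchange. Peaks report open DNA and measure neither the RNA of these genes nor the place of H2A.Z. The loss of INO80 protein was not measured in these lists, and the INO80 start site had a peak in each of them.

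The cell line was checked by its start-site peaks, defined as peaks with a summit within 1 kb of an annotated start site of the gene. Of 9 hepatocyte markers, 7 had such a peak in all 3 lists. ALB lacked it in siINO80#2 and FGB in all lists. None of 6 markers of blood, stromal, endothelial, red or glial cells had one in all 3 lists. PTPRC had a peak in siINO80#1 at a fold enrichment of 2.44, and COL3A1 in siINO80#1 at 2.85 and in siINO80#2 at 2.71.

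All 10 genes had a start-site peak in all 3 lists, as did 50.8% of the protein-coding genes. To show the DNA under these peaks, 150 bases before the canonical start, moved upstream where needed to leave out annotated UTRs, are given for genes that the results below turn on, both H2A.Z genes, the gene with the lowest siINO80#2 ratio (EP400), and the 2 highest in NTG (RUVBL1 and ACTL6A). They are written 5′ to 3′ on the strand of the gene, from GRCh37, and peaks of all 3 lists spanned each of them. Capitals mark the letters CCAAT or its complement ATTGG (the box bound by NF-Y), GGGCGG or its complement CCGCCC (the box bound by SP and KLF factors), and CTTCCGG, the complement of CCGGAAG (the core bound by ETS factors). The H2AZ1 stretch is chr4:100871438-100871587, minus strand, the H2AZ2 stretch chr7:44887687-44887836, minus strand, and the EP400 stretch chr12:132434337-132434486, plus strand. The RUVBL1 stretch is chr3:127842656-127842805, minus strand, and the ACTL6A stretch chr3:179280524-179280673, plus strand. Part of the H2AZ1 stretch lies inside the annotated gene, which runs to position 100871512.
H2AZ1: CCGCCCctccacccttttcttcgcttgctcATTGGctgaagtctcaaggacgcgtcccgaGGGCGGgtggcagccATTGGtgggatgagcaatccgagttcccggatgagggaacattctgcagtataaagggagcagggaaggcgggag
H2AZ2: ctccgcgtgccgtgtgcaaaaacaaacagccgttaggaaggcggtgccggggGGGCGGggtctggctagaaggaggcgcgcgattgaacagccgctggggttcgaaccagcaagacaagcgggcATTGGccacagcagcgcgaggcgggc
EP400: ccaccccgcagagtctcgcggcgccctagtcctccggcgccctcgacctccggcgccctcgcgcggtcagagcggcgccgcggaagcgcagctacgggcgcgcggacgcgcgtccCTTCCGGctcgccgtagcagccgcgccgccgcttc
RUVBL1: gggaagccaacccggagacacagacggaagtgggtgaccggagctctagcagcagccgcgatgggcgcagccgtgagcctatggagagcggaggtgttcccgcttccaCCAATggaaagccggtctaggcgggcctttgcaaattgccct
ACTL6A: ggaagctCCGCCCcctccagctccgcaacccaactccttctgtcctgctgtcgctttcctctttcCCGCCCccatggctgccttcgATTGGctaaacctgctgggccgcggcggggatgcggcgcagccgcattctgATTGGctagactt

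H2AZ1 and ACTL6A each held 2 CCAAT boxes and 2 GGGCGG boxes in this stretch, and H2AZ2 held 1 of each. Counted from the start of the canonical transcript, the CCAAT boxes of H2AZ1 began at -125 and -80, those of ACTL6A at -104 and -53, that of H2AZ2 at -26 and that of RUVBL1 at -42. EP400 held neither box here but an ETS core at -35, and with 79.3% G and C and 31 CpG it was the richest of the 5 in both. In the window from 250 bases before to 50 bases after the start, searched on both strands, CCAAT was present at 6 of the 10 genes (H2AZ1, H2AZ2, ANP32E, RUVBL1, RUVBL2 and ACTL6A), against 36.0% of 19856 protein-coding start windows. GGGCGG was present at 7 of 10, against 61.5%, and CCGGAAG at EP400 and KAT5, against 14.2%. KAT5 was also the single gene with the E-box CACGTG (8.77% of all windows) and the YY1 core AAGATGGC (4.06%). The letters searched for NRF1 (GCGCATGCG), CRE (TGACGTCA), AP-1 (TGACTCA or TGAGTCA), E2F (TTTGGCGC or TTTCGCGC) and FOXA (TGTTTAC) were not in these windows. No motif of this search contains another. A match is a run of letters and was not tested as a binding site.

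The first question was whether the regions around these genes were called in each list. A peak was present in all 3 lists at 19 of 27 regions (70.4%, 95% Wilson interval 51.5 to 84.1), against 26.8% of all regions. The windows were drawn around genes and so take in start sites. How far this choice raised the share of regions near start sites was not tested. A summit within 1 kb of a start site of any gene, called TSS-proximal, was found in 22 of the 27 regions (81.5%, 63.3 to 91.8), against 19.3% of all. Of these 22, 13 lay at a start site of the 10 genes themselves and 9 at that of another gene alone. Of the TSS-proximal regions, 18 of 22 were in all 3 lists, against 54.3% in the series. Of the 5 distal regions, 1 was, against 20.3%. The intervals cover counting error only, and neighbouring regions are not independent.

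Of the 26 NTG peaks in the windows, 24 overlapped a siINO80#1 peak by 1 bp or more (92.3%, 75.9 to 97.9), against 56.5% of all NTG peaks. A siINO80#2 peak overlapped 20 of the 26 (76.9%, 57.9 to 89.0), against 48.0%. The 2 comparisons share the NTG list, and the siINO80#2 list was the shortest. Of the 21 TSS-proximal NTG peaks, 20 had a match in siINO80#1 and 19 in siINO80#2, against 79.8% and 70.2% of such peaks in the series. Of the 5 distal ones, 4 had a match in siINO80#1 and 1 in siINO80#2, against 48.5% and 40.4%, numbers too small to set apart from the series.

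**Figure D1:**
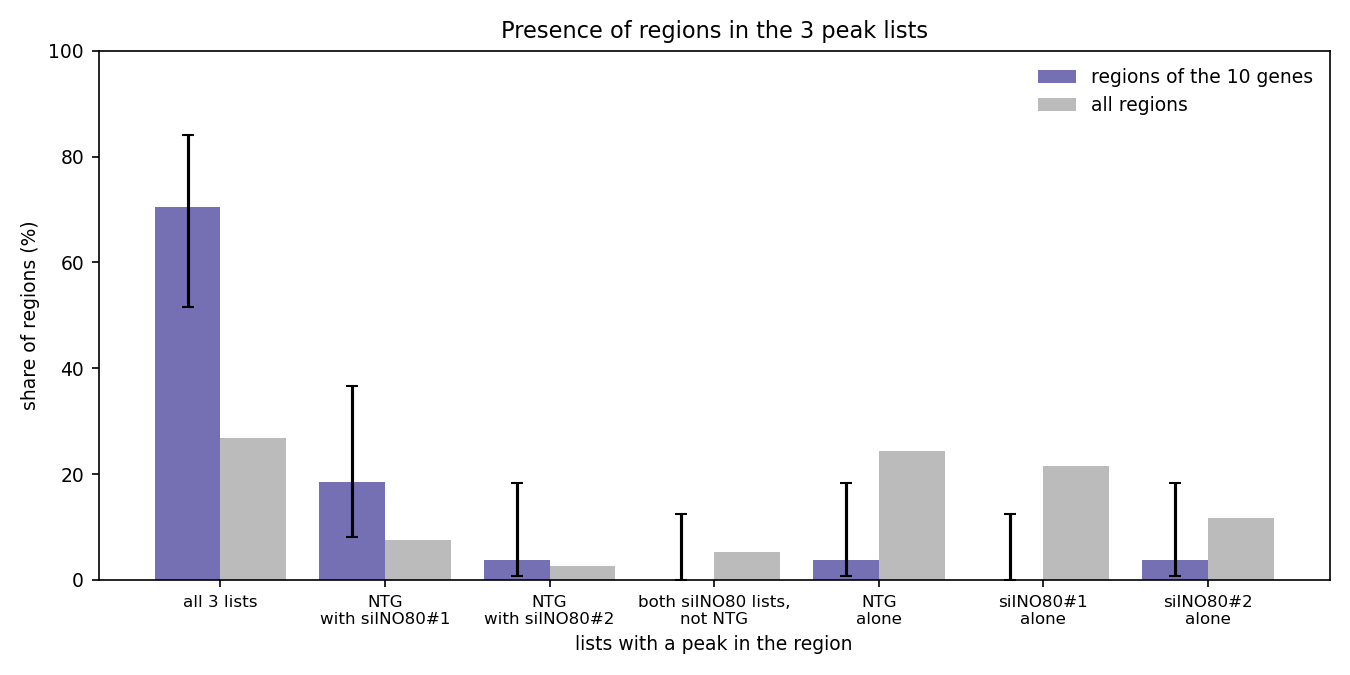
Share of regions, in percent, by the lists that had a peak there, for the 27 regions at the 10 genes and for all 111260 regions of the series; error bars are 95% Wilson intervals. Presence in all 3 lists was the largest class at these genes (70.4%) and in the series (26.8%). None of the 27 regions was shared by the siINO80 lists while missing from NTG, against 5.19% of all regions. The Wilson bar of that class ends at 12.5%, while the 11.1% in the text takes a count of 0 to allow 3.

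Of the 8 regions that were not in all 3 lists, 6 lacked a siINO80#2 peak, against 73.3% of the unshared regions of the series, so that this count was at the background. A siINO80#1 peak was lacking at 3 of the 8, against 53.0%, and an NTG peak at 1, against 52.6%. Those with a peak in NTG and siINO80#1 and not in siINO80#2 numbered 5 of 27 (18.5%, 8.18 to 36.7), against 7.64% of all regions. Presence in both siINO80 lists without NTG was found at 0 of 27, which allows a share of up to 11.1%, against 5.19% of all regions.

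**Figure D2:**
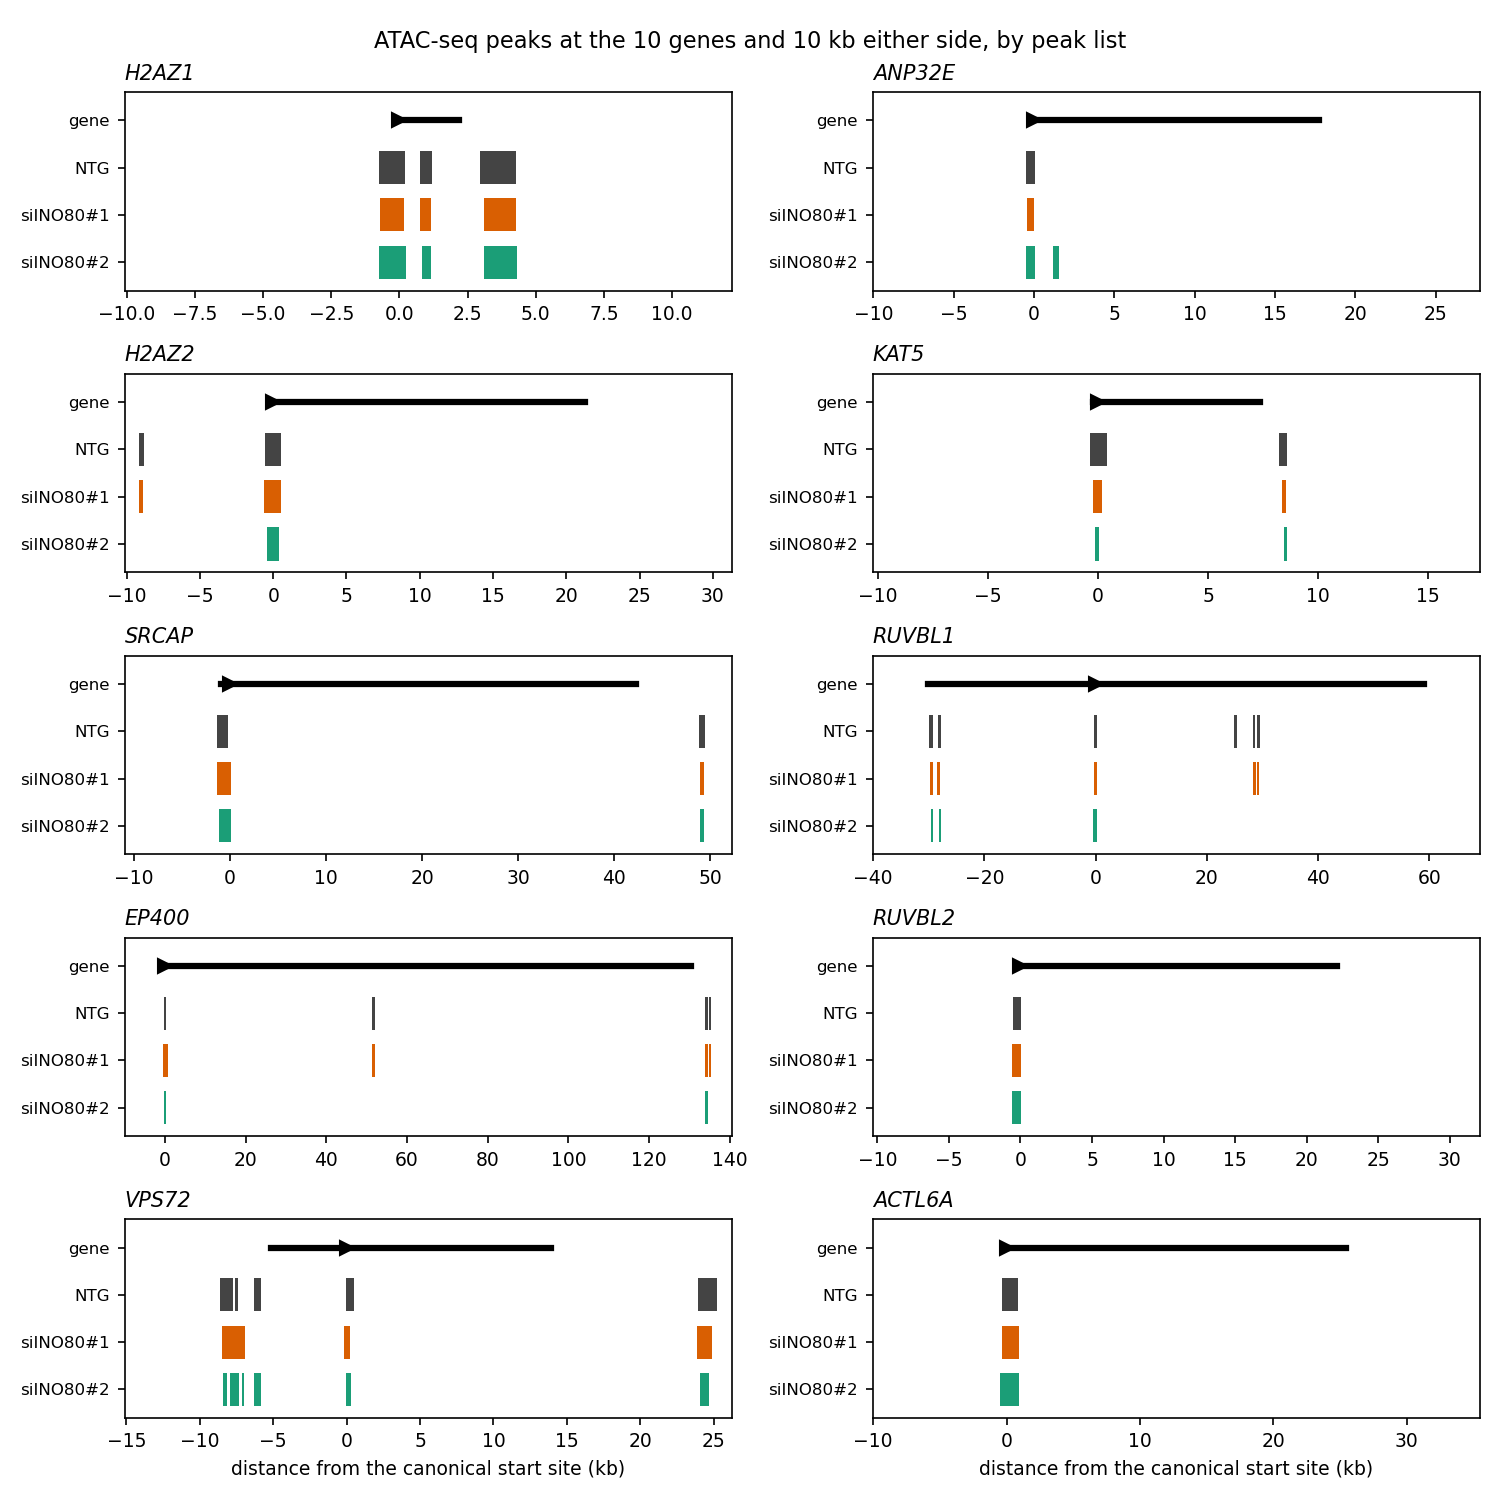
Positions of the peaks of each list at the 10 genes, in kb from the canonical start site with the direction of transcription to the right; each row is 1 list, the black bar is the gene body with an arrowhead at the canonical start, and very narrow peaks are drawn wider so that they can be seen. Each gene has a peak with a summit within 1 kb of an annotated start of its own in all rows. At SRCAP that start lies upstream of the arrowhead, and the NTG peak runs from -1324 to -160 bp. Of the 8 unshared regions 6 are missing from the siINO80#2 row, as were 73.3% of all unshared regions of the series.

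The height of each peak was taken as fold enrichment, the ratio of reads at the summit to the local background in the same list, which does not depend on gene length. Beside it stands a 95% Poisson interval of the reads at the summit, recovered on the assumption that the peak caller used its published formulas, with the background held fixed. It covers counting error only. The median over the 10 start sites was 6.01 in NTG, 5.98 in siINO80#1 and 4.73 in siINO80#2. Over the 10233 genes with a start-site peak in all lists it was 6.0, 5.57 and 4.70. The median log2 ratio over these genes was -0.08 for siINO80#1 over NTG and -0.30 for siINO80#2 over NTG. It was subtracted to give relative log2 ratios, in which 0 is the typical gene and the central 50% of genes lay between -0.20 and 0.20 for siINO80#1 and between -0.22 and 0.21 for siINO80#2.

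Of the H2A.Z genes, H2AZ1 encodes the more studied form and H2AZ2 a form that differs by a few amino acids. The H2AZ1 peak, chr4:100871194-100872190, had a fold enrichment of 6.05 (4.92 to 7.36) in NTG, 6.61 (5.54 to 7.82) in siINO80#1 and 5.26 (4.27 to 6.42) in siINO80#2. The 3 intervals overlapped, and the relative log2 ratios were 0.21 for siINO80#1 and 0.10 for siINO80#2, the latter -0.20 without the subtraction. Its strongest summit lay 7 bp from the start of the divergent transcript H2AZ1-DT, which could not be told apart from H2AZ1 by position. The H2AZ2 peak, chr7:44887172-44888324, had 7.36 (5.56 to 9.56) in NTG, 9.77 (7.94 to 11.89) in siINO80#1 and 5.87 (4.32 to 7.81) in siINO80#2. Here the siINO80#1 interval lay narrowly above that of siINO80#2 (lower limit 7.94, upper limit 7.81), while both overlapped that of NTG. These intervals were not shifted by the median ratios, and with that shift those of the siINO80 lists would overlap. The relative log2 ratios of H2AZ2 were 0.49 for siINO80#1 and -0.03 for siINO80#2, the first of which was the highest of the 10 genes for that siRNA. The strongest H2AZ2 summit lay 94 bp from the start of H2AZ2-DT.

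SRCAP and EP400 encode the large ATPases that drive the exchange in the 2 depositing complexes. The SRCAP peak, chr16:30709168-30710645, had 5.20 (3.95 to 6.72) in NTG, 5.35 (4.25 to 6.66) in siINO80#1 and 4.20 (3.27 to 5.30) in siINO80#2. These intervals overlapped and the relative log2 ratios were 0.13 for siINO80#1 and -0.01 for siINO80#2. The SRCAP peak held several summits, and the strongest of each list lay between -1063 and -983 bp from the canonical start. The highest of these was 43 bp from another annotated SRCAP start. The EP400 peak, chr12:132434112-132435126, had 5.98 (4.33 to 8.06) in NTG, 4.62 (3.36 to 6.21) in siINO80#1 and 2.92 (1.91 to 4.28) in siINO80#2. EP400 had the lowest relative log2 ratio of the 10 genes for siINO80#2, at -0.74, and -0.29 for siINO80#1. In siINO80#2, 24 reads stood at the summit over a background of 7.57, against 41 over 6.03 in NTG. The intervals of these lists narrowly failed to overlap (upper limit 4.28 in siINO80#2, lower limit 4.33 in NTG). They were not shifted by the median ratio, and with that shift they would overlap. Without the subtraction, the EP400 log2 ratio for siINO80#2 was -1.04. The width of the EP400 peak was 514 bp with NTG, 1015 bp with siINO80#1 and 285 bp with siINO80#2. At this start site the ETS core of the sequence printed above lay inside the peaks of all 3 lists.

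VPS72 (also called YL1) binds H2A.Z in both depositing complexes, KAT5 is the TIP60 acetyltransferase, and ANP32E removes H2A.Z. The VPS72 peak, chr1:151162183-151162824, had 3.61 (2.24 to 5.53) in NTG, 4.23 (2.92 to 5.95) in siINO80#1 and 3.81 (2.56 to 5.48) in siINO80#2. The intervals were wide and overlapped, with 19 reads at the NTG summit. VPS72 was the single gene of the 10 whose deposited ratio was not lower in siINO80#2 than in NTG, with relative log2 ratios of 0.31 for siINO80#1 and 0.38 for siINO80#2. The KAT5 peak, chr11:65479358-65480133, had 2.97 (1.87 to 4.51) in NTG, 2.54 (1.66 to 3.73) in siINO80#1 and 2.17 (1.35 to 3.33) in siINO80#2. KAT5 was the lowest of the 10 in each list and close to the limit of calling, with a −log10 q of 3.40, 2.89 and 1.32. The KAT5 intervals overlapped, with relative log2 ratios of -0.14 and -0.15. The ANP32E peak, chr1:150208399-150208977, had 8.39 (6.34 to 10.9) in NTG, 7.19 (5.51 to 9.22) in siINO80#1 and 5.78 (4.29 to 7.63) in siINO80#2. The relative log2 ratios of ANP32E were -0.14 and -0.24, and its 3 intervals overlapped.

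RUVBL1 and RUVBL2 are AAA+ ATPases, and ACTL6A (BAF53A) is an actin-related protein, all of which serve in INO80 as well as in the depositing complexes. The RUVBL1 peak, chr3:127842407-127843100, had 9.41 (7.22 to 12.07) in NTG, 6.82 (5.16 to 8.87) in siINO80#1 and 6.47 (4.83 to 8.49) in siINO80#2. Its relative log2 ratio for siINO80#1, -0.38, was the lowest of the 10 genes, although the intervals overlapped. The RUVBL2 peak, chr19:49496531-49497193, had 5.51 (4.06 to 7.31) in NTG, 4.79 (3.62 to 6.23) in siINO80#1 and 3.92 (2.82 to 5.33) in siINO80#2. These intervals overlapped too, with relative log2 ratios of -0.12 and -0.19. The ACTL6A peak, chr3:179280237-179281644, had 10.75 (9.17 to 12.53) in NTG, 11.75 (10.26 to 13.4) in siINO80#1 and 9.40 (8.03 to 10.93) in siINO80#2. ACTL6A was the highest of the 10 in NTG, siINO80#1 and siINO80#2 alike, ahead of RUVBL1 in the NTG and siINO80#2 lists and of H2AZ2 in siINO80#1. Its reads at the summit numbered 162, 220 and 167, the most of the 10, so that its values were the most precise. The relative log2 ratios of ACTL6A were 0.21 and 0.10, the latter -0.19 without the subtraction.

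**Figure D3:**
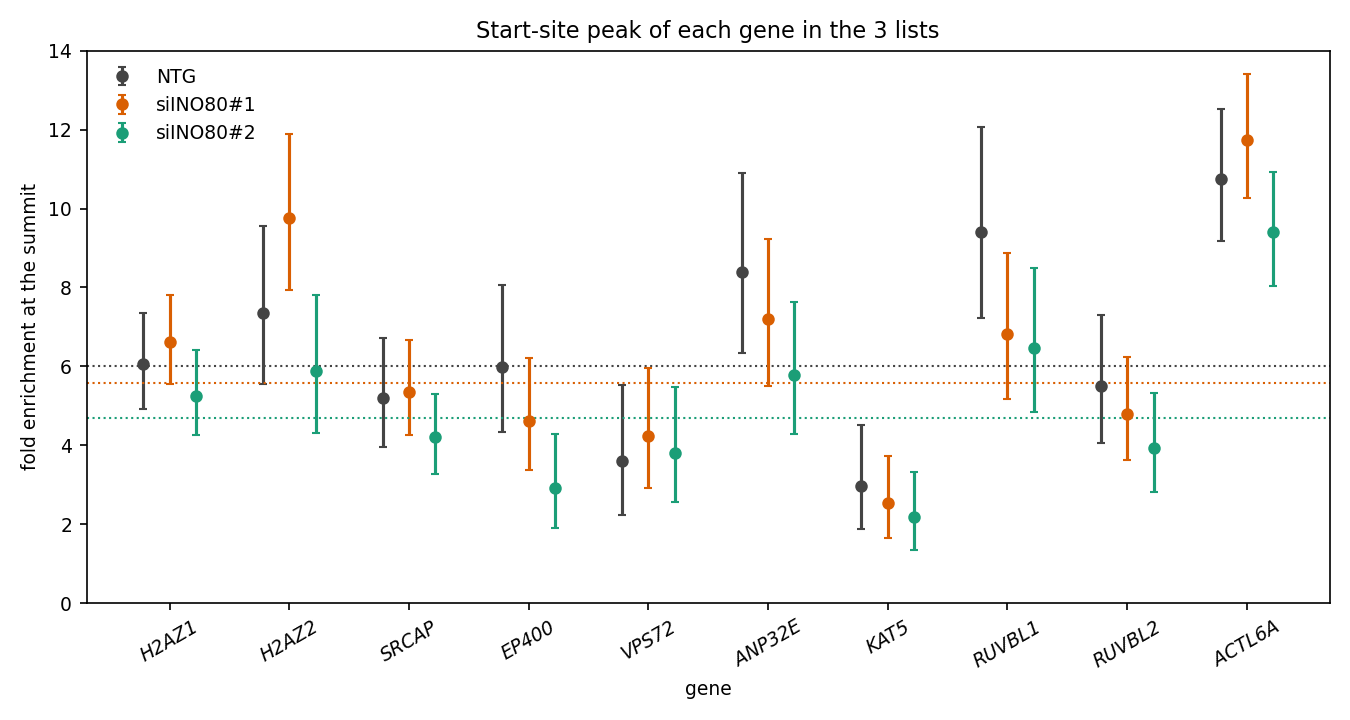
Fold enrichment of the start-site peak of each gene in the 3 lists; points are the deposited values and bars are 95% Poisson intervals of the reads at the summit, for counting error only. ACTL6A is highest and KAT5 lowest in each list, and EP400 lies at 2.92 in siINO80#2 against 5.98 in NTG.

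Counted over the genes, the deposited fold enrichment was lower in siINO80#1 than in NTG at 5 of 10, against 60.7% of all genes, and lower in siINO80#2 at 9 of 10, against 83.1%. It was lower by at least 2-fold in siINO80#1 at 0 of 10, against 0.440%, and in siINO80#2 at 1 of 10 (EP400), against 2.61%. The intervals of NTG and siINO80#1 did not overlap at 0 of 10 genes, against 1.27%, those of NTG and siINO80#2 at 1 (EP400), against 5.95%, and those of the 2 siINO80 lists at 1 (H2AZ2), against 2.67%. The median relative log2 ratio of the 10 genes was 0.00 for siINO80#1 and -0.09 for siINO80#2. These counts, over 10 genes, lay close to the shares over all genes.

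**Figure D4:**
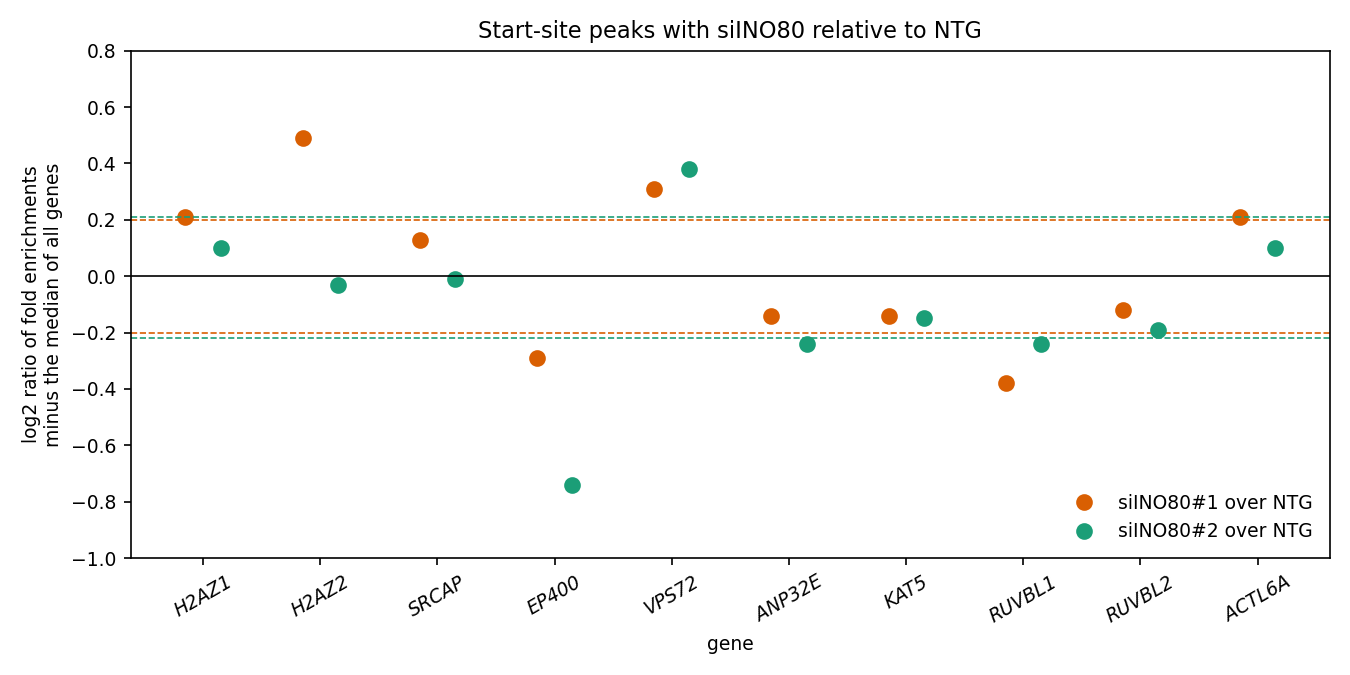
Log2 ratio of start-site fold enrichment over NTG for each gene and siRNA, relative to the median gene (0). The dashed lines, a pair for each siRNA in its colour, enclose the central 50% of all 10233 genes. H2AZ2 with siINO80#1 (0.49) and EP400 with siINO80#2 (-0.74) lie farthest from 0.

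Of the regions away from the promoters of the 10 genes, the one with the highest fold enrichment among those missing in siINO80#2 lay 9007 bp upstream of H2AZ2, at chr7:44896478-44896824. It had 6.02 in NTG, above 84.6% of the peaks of that list, and 4.12 in siINO80#1. Of the 4424 distal NTG peaks between the 80th and 90th percentiles, 15.6% had no siINO80#2 match. The bases within 50 bp of its NTG summit, chr7:44896643-44896743, are given on the plus strand because this was the strongest unshared region, with the CCAAT box in capitals.
H2AZ2 upstream: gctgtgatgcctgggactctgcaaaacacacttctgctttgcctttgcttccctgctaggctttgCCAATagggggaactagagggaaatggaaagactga

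RUVBL1 held 3 further unshared regions, all intronic and distal. Those at chr3:127813284-127813709 and chr3:127813949-127814280 had 3.92 and 3.28 in NTG and 2.54 and 2.91 in siINO80#1, respectively. The one at chr3:127817453-127817673 was in NTG alone, at 2.39 with 14 reads, near the lower end of that list. EP400 held 2 unshared regions, both lacking in siINO80#2. One, in an intron at chr12:132486034-132486323, lay at an annotated miRNA (AC137590.1) and had 3.94 in NTG and 3.74 in siINO80#1. The other, downstream at chr12:132569445-132569760, lay at a lncRNA start and had 2.44 in NTG and 3.22 in siINO80#1. Upstream of VPS72, chr1:151168500-151168994 had 2.75 in NTG and 2.72 in siINO80#2 and no siINO80#1 peak. In ANP32E, chr1:150206920-150207291, at an internal start site, was in siINO80#2 alone, at 2.54 with 20 reads. Most of these peaks were low and rested on few reads.

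The other 9 shared regions lay within or beside 6 of the genes. In H2AZ1, an intronic region had 2.89, 2.69 and 2.54 in NTG, siINO80#1 and siINO80#2, and the one at the neighbour DNAJB14 had 3.67, 3.49 and 3.21. Beside SRCAP, the PHKG2 start had 7.96, 6.20 and 5.25. Downstream of EP400, chr12:132568336-132569038 had 6.52, 5.46 and 4.47. Beside VPS72, the region at PIP5K1A had 4.74, 4.09 and 3.22, and that at LYSMD1 and SCNM1 had 3.99, 3.43 and 2.92 and entered the window through the end of its siINO80#1 peak alone, the others lying just outside. The RNASEH2C start beside KAT5 had 3.11, 2.19 and 2.25. The regions near EEFSEC at the upstream end of RUVBL1 had 4.85, 2.96 and 3.67, and 2.77, 3.82 and 2.75. Within 100 bases of the strongest summit, the AP-1 letters were found at 0 of the 5 distal regions, against 13.0% of all distal regions, and CCAAT at 1 of 5, against 25.4%.

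The other genes of the complexes gave the setting. Of 28 further subunit genes of SRCAP, TIP60-p400 and INO80, 23 had a start-site peak in all 3 lists (82.1%), against the 50.8% of all genes. The exceptions were DMAP1, with a peak in siINO80#1 alone (3.36), TRRAP, with one in NTG (2.36) and siINO80#1 (2.76), JAZF1, in NTG (5.72) and siINO80#1 (3.74), MCRS1, in NTG (3.15) and siINO80#1 (3.27), and MRGBP, with none. DMAP1 and MRGBP encode small structural subunits, and TRRAP the large scaffold of the TIP60 complex. Of the 23 genes, fold enrichment was lower than in NTG at 12 with siINO80#1, against 60.7% of all genes, and at 16 with siINO80#2, against 83.1%. It was lower by at least 2-fold at 0 with either siRNA, against 0.440% and 2.61%. Their median relative log2 ratios were 0.05 and 0.14. Of 12 genes of other histone variants and chaperones, 11 had a peak in all lists, and MACROH2A2 had one in NTG alone (4.95).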

How the data were processed

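ATAC-seq peaks of HepG2 cells were analysed in 3 groups of 3 replicates, grouped by sample title. The authors deposited 1 filtered peak list per group, with the replicates pooled or called together, and no value per replicate was used. Per the submitters' processing notes, Trim Galore 0.4.1, Bowtie2, SAMtools, MACS2 and deepTools 2.2.4 were used with hg19. Their parameters, the filter on peaks and the handling of the transposase offset are not given in the sources used here. The deposited columns are a display score, a fold enrichment (a ratio of reads at the summit to local background), −log10 p and −log10 q values, and the summit offset. On GRCh37 every peak fitted within its chromosome. All 3 lists began at a −log10 q of 1.3, and they do not give the read depth.

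Overlaps of 1 bp or more were counted, and peaks of the 3 lists were merged into regions. A region belonged to a gene when it touched the GENCODE gene body (lifted to GRCh37) or 10 kb on either side. Start sites within 1 kb of a summit were taken from the same annotation. Shares have 95% Wilson intervals. Reads at the summit and background were solved from fold enrichment and −log10 p of each peak, assuming MACS2 formulas. Over 74 peaks of the member regions, the error in −log10 p was at most 0.00012. The next best whole number, adjacent or not, missed by at least 0.048. The overlap and the recovery of reads were tested on simulated data (5000 intervals and 2000 peaks, 100% recovered). The simulated peaks were made with the same formulas. They check the solving step and cannot show that the deposited lists used these formulas. Groups were not tested against each other, since each had 1 list.

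The 10 genes and the lists of related genes, markers and motifs were chosen with earlier results of these data known. By the rule for named genes, all 10 are given with their start-site peak in each list, with the 2 highest regions of each unshared class and each related gene lacking a start-site peak in 1 or more lists. The remaining regions were named after their values were seen. So were the relative log2 ratio, the 2-fold threshold and the unshifted ratio. Alternatives were an overlap of 50%, a −log10 q minimum of 5, merging within 500 bp, equal list sizes (53113 peaks), gene bodies alone, flanks of 5 kb and a start-site distance of 2.5 kb. The tools were bedtools 2.31.1, pysam 0.24.0, scipy 1.17.1, matplotlib 3.10.9, pandas 2.3.3, numpy 2.4.6 and Python 3.11.15.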

Additional observations from a re-analysis of the deposited data

Results flagged for a closer look

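The relative log2 ratio of start-site fold enrichment had opposite signs for the siRNAs at H2AZ2 (0.49 for siINO80#1 and -0.03 for siINO80#2, a difference of 0.52) and at SRCAP (0.13 and -0.01, a difference of 0.13). With 1 list per group the difference was not tested, and the siINO80#2 values lie near 0.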

How the results depend on the processing

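No paired analysis was possible because each group had 1 peak list without values per replicate, and for the same reason no replicate could be left out. The main setting gave 19 of 27 regions in all 3 lists. With a −log10 q of at least 5, regions in all 3 lists numbered 12 of 21. Those in both siINO80 lists and not NTG numbered 1, in siINO80#1 alone 2 and in siINO80#2 alone 0. At equal list size, of 26 regions, 16 were in all 3 lists, 3 in NTG and siINO80#1 and 2 in NTG and siINO80#2. Another 1 was in both siINO80 lists and not NTG, 1 in siINO80#1 alone and 2 in siINO80#2 alone. For an overlap of 50%, a list counted as present only where its peaks covered at least 50% of the merged region. A narrower peak then counted as absent. Of 27 regions, 13 counted as in all 3 lists, 9 in NTG and siINO80#1 and 2 in siINO80#1 alone. In the main setting the last 2 classes held 5 and 0, so these rises reflect peak width and not missing peaks. Merging within 500 bp left 19 of 25 in all 3 lists and 3 in NTG and siINO80#1. Gene bodies alone left 13 of 18 in all 3 lists, 3 in NTG and siINO80#1 and 0 in NTG and siINO80#2. Shares over all regions are not given for these alternatives. A distance of 2.5 kb made 92.6% of regions TSS-proximal. Without subtraction of the median, the log2 ratios for siINO80#2 changed sign at H2AZ1 (-0.20, from 0.10) and ACTL6A (-0.19, from 0.10). These sign changes are arithmetic, from the subtracted median of -0.3 over all genes for siINO80#2. The cause of that median was not tested. A start-site peak in all 3 lists was kept by 7 of the 10 genes with a −log10 q of at least 5 (not VPS72, EP400 and KAT5) and by 9 at equal list size (not KAT5). The share of all protein-coding genes is not given at these settings, so this loss cannot be set beside it. Matches of NTG peaks ranged from 86.4% to 94.1% in siINO80#1 and from 61.5% to 81.8% in siINO80#2. Sequencing depth is not known, and low peaks with few reads at the summit limit every statement on their absence.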
